A study of Mus musculus with 20 samples.

Results

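The mouse Cyp2c genes encode cytochrome P450 monooxygenases, and the 10 members described here are Cyp2c29, Cyp2c37, Cyp2c38, Cyp2c39, Cyp2c40, Cyp2c44, Cyp2c50, Cyp2c54, Cyp2c55 and Cyp2c70. A probe was taken as a member where the accession that the array files give for it belonged to 1 of these genes. By this rule 9 of the 10 genes had a probe, with 12 probes of the 41174 on the array, and 12 of the 12 were among the 27346 probes judged present. Cyp2c50 had no probe by accession, and Cyp2c44 was matched through its current symbol, Cyp2c23. Outside the list, 1 further Cyp2c gene, Cyp2c66, had a probe.

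The liver RNA came from male Muta™Mouse animals (transgenic strain 40.6, a line that carries a bacterial reporter for mutation), 25 weeks of age. Groups of 5 mice received olive oil alone or benzo(a)pyrene (BaP, a polycyclic aromatic hydrocarbon that is activated to a mutagen in the liver) in olive oil at 25, 50 or 75 mg/kg/day by oral gavage. Dosing lasted 28 days and the livers were taken 3 days after the last dose. Each liver RNA (Cy5) was hybridised once against a common reference RNA pooled from 11 mouse cell lines (Cy3), so that a level below is the log2 ratio of liver to reference for 1 probe, and levels of different probes were not set against each other.

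The Cyp2c enzymes sit in the endoplasmic reticulum, take electrons from cytochrome P450 reductase, and oxidise drugs, steroids and fatty acids. From arachidonic acid, the epoxygenases among them form epoxyeicosatrienoic acids and the hydroxylases form hydroxyeicosatetraenoic acids. In hepatocytes their transcription is known to depend on HNF4α and on the nuclear receptors CAR and PXR, whereas BaP acts through the aryl hydrocarbon receptor, whose classical targets are Cyp1 genes.

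On the mouse reference build GRCm38.p6, 9 of the 10 genes lay in 1 cluster on chromosome 19, from Cyp2c55 (start 39006940) to Cyp2c70 (end 40187286), and Cyp2c44 lay apart at 44005022 to 44029256. Promoter stretches from RefSeq were at hand for 8 of the 10 members, and the 250 bases before each start were searched on both strands for the letters CAAAGT, which open the HNF4α recognition sequence CAAAGTCCA. The 6 letters were found in 7 of these 8 members and in 12.6% of all 32851 promoter stretches of the same length. The windows of 30 bases below, from chromosome 19 on the coding strand with CAAAGT in capitals, are shown because they place Cyp2c40 and Cyp2c38, which the results turn on, beside neighbours in the cluster. Where a stretch held several matches (Cyp2c29, Cyp2c37 and Cyp2c70), the one that shared most bases with the Cyp2c40 window is shown:
Cyp2c40 (chr19:39812840-39812869, minus strand): atcattgagaCAAAGTccatttggaagaga
Cyp2c38 (chr19:39463167-39463196, minus strand): tatcaaggaaCAAAGTttatttgaatgaga
Cyp2c39 (chr19:39347222-39347251, plus strand): atcaaagggaCAAAGTctacttgaaagaga
Cyp2c29 (chr19:39286966-39286995, plus strand): atcaaagagaCAAAGTctattagagagaga
Cyp2c37 (chr19:39992298-39992327, plus strand): agtattgtagCAAAGTctagttgaatgaga
Cyp2c70 (chr19:40187362-40187391, minus strand): ttaaacagacCAAAGTgtactaaagataaa

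The window of Cyp2c40 shared 24 of 30 bases with those of Cyp2c29 and Cyp2c39, 21 with Cyp2c37, 18 with Cyp2c38 and 13 with Cyp2c70. That of Cyp2c50, not shown, shared 16. The windows were aligned on CAAAGT, so those letters were shared by design, and the number shared between unrelated windows was not taken. The longer CAAAGTCCA stood in the stretches of Cyp2c40 and Cyp2c70 (0.384% of all stretches), in Cyp2c70 at its other match, outside the window shown. The letters GCGTG, the core that the aryl hydrocarbon receptor binds, were in 0 of the 8 members' stretches and in 28.2% of all stretches, and TATAAA was in 4 members (Cyp2c29, Cyp2c38, Cyp2c55 and Cyp2c70) and 12.4% of all. These matches describe letters only; binding was not measured.

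Every one of the 12 Cyp2c probes had a higher mean in the exposed livers than in the controls at each of the 3 doses, where 50.3%, 49.2% and 50.6% of all present probes did so at 25, 50 and 75 mg/kg/day. The members' median log2 fold change was 0.32, 0.38 and 0.47, against 0.00, -0.00 and 0.00 over all present probes. At 25 mg/kg/day the members' median was 0.19 with slide as a fixed block and 0.14 on the 3 slides that held every group, and at 50 mg/kg/day it was 0.20 with the Agilent-processed signals. The 3 comparisons share the control mice, so the doses are not independent of each other. Nor are the 12 probes, which come from 9 genes read in the same mice, with r between pairs up to 0.95. Single probes seldom passed the test: with an adjusted p under 0.05 and a fold over 1.5, 0 of 12 members were called at any dose, as were 0% of all probes at 25, 0% at 50 and 0.135% at 75 mg/kg/day. Before adjustment, p was under 0.05 for 2, 6 and 6 of the 12 members at the rising doses, beside 7.81%, 6.7% and 11.2% of all probes. Cyp2c38 A_52_P468564, among the 12 and among the 6 at either higher dose, passed the presence filter only through the exposed groups. In the Agilent-processed signals, the direction held for 11, 10 and 11 of the 12 members, and in the liver colour alone for 8, 12 and 12.

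**Figure D1:**
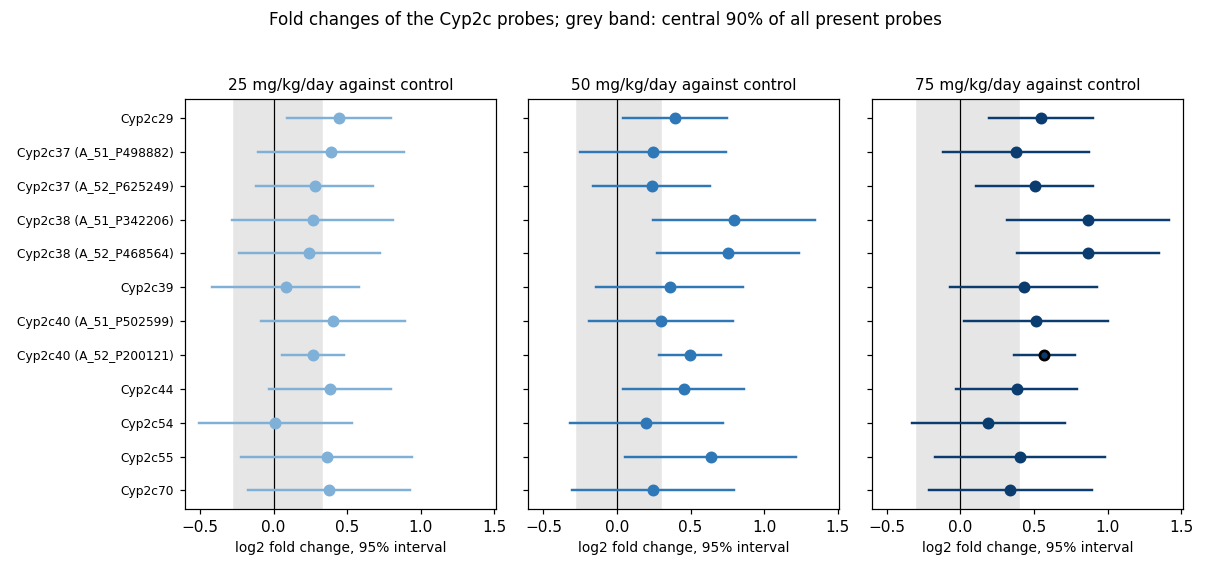
Log2 fold change of each of the 12 Cyp2c probes (points) with its 95% interval (lines) at 25, 50 and 75 mg/kg/day against control, with 5 mice per group; the grey band holds the central 90% of all present probes and a black ring marks an adjusted p under 0.05. All 12 points lie right of 0 in each panel, and 1 probe, Cyp2c40 A_52_P200121 at 75 mg/kg/day, is ringed.

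Cyp2c40, an arachidonic acid hydroxylase, had the member probe with an adjusted p under 0.05, at 75 mg/kg/day and with a fold under the limit for a call. Its probe A_52_P200121 read 6.39, 6.39, 6.43, 6.33 and 6.42 in control mice 1 to 5, and 6.86, 6.47, 6.83, 6.62 and 6.52 at 25 mg/kg/day. It read 6.89, 6.66, 7.04, 6.92 and 6.93 at 50 mg/kg/day and 6.87, 6.97, 7.09, 7.17 and 6.72 at 75 mg/kg/day. In this ratio the controls lay close together, and each exposed mouse, at each dose, lay above all 5 controls. That held for 1, 1 and 2 of the 12 members at 25, 50 and 75 mg/kg/day, beside 0.559%, 0.527% and 0.936% of all probes. In the liver colour alone, scaled on its own, the groups of this probe overlapped and the control SD was 0.49. Control mouse 4, at 13.67, was there above the highest mouse at 25 mg/kg/day (13.47).

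The rise of this Cyp2c40 probe was 0.27 ± 0.10 at 25, 0.49 ± 0.10 at 50 and 0.57 ± 0.10 at 75 mg/kg/day (log2 fold change ± SE, n = 5 per group; limma adjusted p = 0.636, 0.326 and 0.0167). The last is a 1.49-fold difference, under the fold limit of 1.5, and 0.154% of all probes passed the adjusted p alone at this dose. A linear trend over dose was called for 1 of the 12 members, again this probe, at 0.19 ± 0.03 per 25 mg/kg/day (limma adjusted p = 0.0059), as it was for 0.154% of all probes in the rising direction. The trend of this probe was not called with the Agilent-processed signals, where the 1 member called was Cyp2c38 A_52_P468564, nor with the liver colour alone, where it was Cyp2c40 A_51_P502599. The adjusted p at 75 mg/kg/day was under 0.05 in 28 of 35 settings, the reported one included. Of the 35, 20 left out 1 array, and 18 of these were among the 28. Some of the 20 dropped an array of neither group compared, and scaling the arrays to each other left the ratios unchanged. The 28 are therefore not independent checks. Among the settings that lost it were those without replicate 17 (0.0508) or 18 (0.0613) of the highest dose and slide as a fixed block (0.0779). With the Agilent-processed signals in place of the background-corrected ones, the difference at 75 mg/kg/day was 0.16 ± 0.33 (limma adjusted p = 0.891).

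The other Cyp2c40 probe, A_51_P502599, did not pass. It read 6.77, 5.33, 5.66, 5.49 and 6.36 in the controls and 6.72, 6.29, 6.56, 6.16 and 6.45 at 75 mg/kg/day. Control mouse 1 was above all 5 mice of the highest dose, and control mice 2, 3 and 4 were below all of them. The log2 fold change, 0.51 ± 0.24, was close to that of the first probe, with a limma adjusted p of 0.423. Over the 20 arrays the 2 probes of this gene had a Pearson r of 0.37 and a Spearman rho of 0.27 (permutation p = 0.112 and 0.256; adjusted over the 66 pairs of members 0.232 and 0.345), and r was 0.09 without the 2 arrays farthest from the median. Cyp2c40 has close relatives beside it in the cluster, Cyp2c67, Cyp2c68 and Cyp2c69, none with a probe by accession, and which of these transcripts each probe also bound was not tested.

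Cyp2c38, an epoxygenase, was read from dim spots. Its probe A_51_P342206 read 0.08, -0.01, 0.37, 0.28 and 0.52 in the controls and 1.23, 0.02, 0.54, 0.53 and 0.25 at 25 mg/kg/day. It read 0.80, 0.31, 1.61, 1.81 and 0.69 at 50 mg/kg/day and 1.11, 1.03, 1.77, 0.61 and 1.06 at 75 mg/kg/day. At the highest dose each mouse was above all controls, at 50 mg/kg/day 4 of 5 were and at 25 mg/kg/day 3 of 5. The second probe, A_52_P468564, read -0.01, 0.31, 0.22, 0.51 and 0.76 in the controls and 0.96, 1.31, 1.72, 0.73 and 1.40 at 75 mg/kg/day, where 4 of 5 mice were above all controls.

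For the 2 Cyp2c38 probes the log2 fold change was 0.27 ± 0.26 and 0.24 ± 0.23 at 25, 0.80 ± 0.26 and 0.75 ± 0.23 at 50, and 0.87 ± 0.26 and 0.87 ± 0.23 at 75 mg/kg/day. The limma adjusted p at 75 mg/kg/day was 0.233 and 0.168, and for the trend 0.154 and 0.0857. The liver signal was marked as well above background on 2 of 5 control arrays, 3 of 5 at 25 mg/kg/day and 5 of 5 at either higher dose for each probe, and the reference signal on 0 and 1 of 20 arrays. The control level was therefore measured in 2 of 5 mice only, and the size of these differences, and their p-values, rest partly on spots near background. Probe A_52_P468564 was present on 3 of 5 control arrays and on 5 of 5 at each dose, so that it passed the presence filter through the exposed groups. With the Agilent-processed signals, the differences at 75 mg/kg/day were 2.57 ± 0.65 and 4.10 ± 0.71 (limma adjusted p = 0.138 and 0.0130) and those at 50 mg/kg/day 2.40 ± 0.65 and 3.50 ± 0.71 (limma adjusted p = 0.482 and 0.218), so these data do not fix the size. Unlike the Cyp2c40 pair, the Cyp2c38 probes moved together over the 20 arrays (r = 0.94, rho = 0.94, permutation p = 1e-05 for both, the smallest that 99999 random permutations can give; adjusted 0.00011 and 0.000165; r = 0.94 without the 2 farthest arrays).

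**Figure D2:**
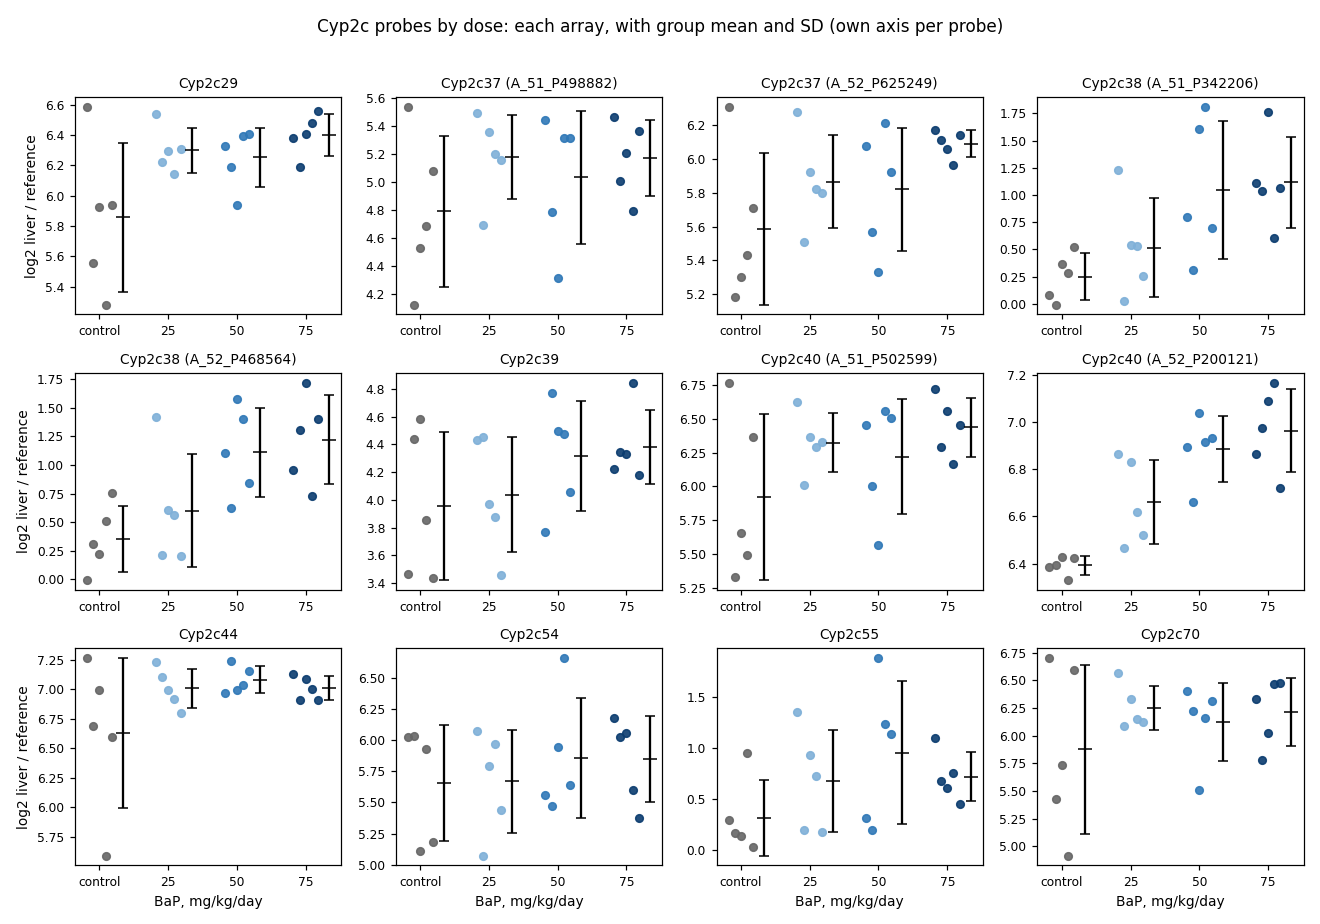
Log2 ratio of liver to reference (y axis, own range per panel) of the 12 Cyp2c probes in each of the 20 mice by dose of BaP (x axis, mg/kg/day), with points for mice in replicate order and a bar for the group mean ± SD. Cyp2c40 A_52_P200121 has control mice between 6.33 and 6.43 and no overlap with the exposed mice, whereas the controls of Cyp2c29, Cyp2c44 and Cyp2c70 span more than the exposed groups.

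Cyp2c29, Cyp2c39 and Cyp2c44 are also epoxygenases. Cyp2c29, a classical target of CAR, read 6.58, 5.56, 5.93, 5.28 and 5.94 in the controls and 6.38, 6.19, 6.41, 6.48 and 6.56 at 75 mg/kg/day. Control mouse 1 was above all 5 mice of the highest dose and the other 4 controls were below all of them. The difference was 0.44 ± 0.17 at 25, 0.40 ± 0.17 at 50 and 0.55 ± 0.17 at 75 mg/kg/day (limma adjusted p = 0.636, 0.724 and 0.239). Without control replicate 1 it was 0.73 ± 0.14 at the highest dose, with a limma adjusted p of 0.0327, so that this 1 array decided whether Cyp2c29 was called.

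Cyp2c44 read 7.26, 6.69, 6.99, 5.59 and 6.60 in the controls and 7.13, 6.91, 7.08, 7.00 and 6.91 at 75 mg/kg/day. Control mouse 4 stood low and control mouse 1 was the highest of the 20, so the groups overlapped, and the differences of 0.38, 0.45 and 0.38 (SE 0.20 each) had limma adjusted p-values of 0.651, 0.727 and 0.481. Without control replicate 4 they were 0.12, 0.19 and 0.12 (SE 0.12 each). Cyp2c39 read 3.47, 4.44, 4.58, 3.85 and 3.44 in the controls and 4.22, 4.35, 4.33, 4.84 and 4.18 at 75 mg/kg/day. Its estimates rose with dose from 0.08 to 0.36 and 0.43 (SE 0.24 each; limma adjusted p = 0.950, 0.809 and 0.516), with control mice 2 and 3 within the range of the highest dose.

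Cyp2c37, which like Cyp2c40 hydroxylates arachidonic acid, had 2 probes. Their estimates at the 3 doses were 0.39, 0.24 and 0.38 (SE 0.24 each) for A_51_P498882 and 0.28, 0.24 and 0.50 (SE 0.19 each) for A_52_P625249, with limma adjusted p-values from 0.333 to 0.877. The second probe read 6.31, 5.18, 5.30, 5.43 and 5.71 in the controls and 6.17, 6.11, 6.06, 5.97 and 6.15 at the highest dose. As with Cyp2c29, control mouse 1 lay above all mice of the highest dose and the other 4 controls lay below them.

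Cyp2c70, which forms the muricholic acids that mark mouse bile, read 6.70, 5.43, 5.74, 4.92 and 6.60 in the controls, a wider spread than in any exposed group. Its estimates were 0.38, 0.25 and 0.34 (SE 0.26 each), with limma adjusted p-values from 0.667 to 0.890, and without control replicate 4 they were 0.14, 0.01 and 0.10 (SE 0.24 each). Cyp2c54 had the smallest estimates, 0.01, 0.20 and 0.19 (SE 0.25 each), and its groups overlapped. Cyp2c55, best known from the intestine and as an inducible enzyme in liver, was estimated at 0.36, 0.64 and 0.40 (SE 0.28 each; limma adjusted p = 0.756, 0.727 and 0.610). Its highest value, 1.88, was in replicate 13 of the 50 mg/kg/day group. Cyp2c66, outside the list and well above background on 7 of 20 arrays, had estimates of -0.12, -0.10 and -0.08 (SE 0.11 each; limma adjusted p = 0.787, 0.896 and 0.816).

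In 9 of the 12 probes the SD among controls was larger than at 75 mg/kg/day, and for 7 of the 12 the highest group mean was at 75 mg/kg/day, with 4 probes stepping up at every dose. These counts were not taken over all present probes, so they describe the members and are not shown to be particular to them. The 95% interval of the difference at 75 mg/kg/day reached 0.90 for Cyp2c29, 0.80 for Cyp2c44, 0.89 for Cyp2c70 and 0.71 for Cyp2c54 on the log2 scale. Differences of that size were therefore not excluded for members that missed the threshold.

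Genes that mark hepatocytes shifted in the same direction as the family. All 16 of the listed hepatocyte genes (such as Alb, Apob and Ttr) were well above background on all 20 arrays, and none of them is a Cyp2c gene. Each of the 16 had a higher estimate at each dose, with a median log2 fold change of 0.35, 0.32 and 0.42 at 25, 50 and 75 mg/kg/day, and 0 of 16 were called. Their mean log2 ratio ran from 5.13 to 6.47 in the controls, from 5.88 to 6.46 at 25, from 5.86 to 6.38 at 50 and from 5.98 to 6.33 at 75 mg/kg/day. In bulk RNA, fewer cells of a type and less RNA per cell cannot be told apart.

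Over the 20 arrays this hepatocyte mean was correlated with 7 of the 12 Cyp2c probes at an adjusted permutation p under 0.05 for r. The share of all present probes so correlated was not taken, so this count does not set the family apart from other liver genes. The closest was Cyp2c29 (r = 0.95, rho = 0.93, permutation p = 1e-05 for both, adjusted 4e-05; r = 0.89 without the 2 farthest arrays, 0.93 after removing group means and 0.95 after removing slide means). For the Cyp2c40 probe A_51_P502599, r was 0.84 and rho 0.86 (permutation p = 1e-05 for both, adjusted 4e-05; r = 0.78 without the 2 farthest arrays). For A_52_P200121, r was 0.50 and rho 0.37 (permutation p = 0.0216 and 0.114, adjusted 0.0370 and 0.172), and r was 0.26 without the 2 farthest arrays, so that the pooled relation rested on those arrays, 0.19 after removing group means and 0.61 after removing slide means. For Cyp2c38 A_51_P342206, r was 0.41 and rho 0.45 (permutation p = 0.0689 and 0.0460, adjusted 0.103 and 0.0788; r = 0.28 without the 2 farthest arrays).

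The part of the hepatocyte shift in the Cyp2c differences was not tested. As measured, the 5 controls of Cyp2c40 A_52_P200121 lay between 6.33 and 6.43, and their hepatocyte mean ran from 5.13 to 6.47. Control mouse 1, the highest of all mice in the hepatocyte mean and in Cyp2c29, read 6.39. The narrow spread of these controls in the ratio is also what set this probe apart, so it is no separate evidence. In the liver colour alone, the control SD of this probe was 0.49. The 12 listed endothelial genes had a median of 0.34, 0.29 and 0.34, with Lyve1 called at 75 mg/kg/day (log2 fold change 2.23 ± 0.40, limma adjusted p = 0.0189), and 11 of 12 higher at each dose. The 12 Kupffer cell genes had a median of 0.17, 0.16 and 0.10, with Marco called (2.19 ± 0.30, limma adjusted p = 0.00148). Of 10 lung epithelium genes, given here because the labels also name lung, 6 were present, and Sftpc, Sftpb and Foxj1 had probes that were not. Of those present, 4 of 6 had a higher estimate at 75 mg/kg/day and 0 were called. Sftpd, a surfactant protein, was at 1.19 ± 0.25 with 5 of 5 mice above all controls (limma adjusted p = 0.0688), Napsa at -0.35 ± 0.12 and Ager at 0.15 ± 0.13 (limma adjusted p = 0.308 and 0.708).

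**Figure D3:**
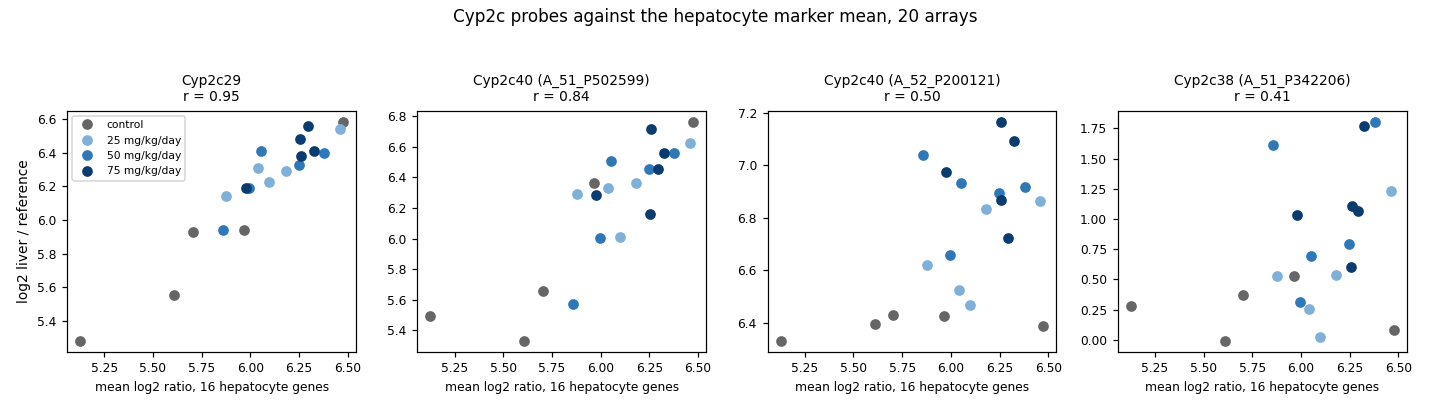
Log2 ratio of 4 Cyp2c probes (y axis) against the mean log2 ratio of 16 hepatocyte genes (x axis) in the 20 mice, coloured by dose. Cyp2c29 and Cyp2c40 A_51_P502599 follow the hepatocyte mean (r = 0.95 and 0.84), and the control mice of Cyp2c40 A_52_P200121 lie flat below the exposed mice.

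Among the 66 pairs of member probes, 60 had a positive r over the 20 arrays (median 0.35) and 22 had an adjusted permutation p under 0.05. Pairs of probes outside the family were not counted, so these numbers have no share to be read against. The highest was between probes of different genes, Cyp2c37 A_51_P498882 and Cyp2c40 A_51_P502599 (r = 0.95, rho = 0.94, permutation p = 1e-05 for both, adjusted 0.00011 and 0.000165; r = 0.91 without the 2 farthest arrays and 0.95 after removing group means). Cyp2c40 A_52_P200121 was instead nearest to Cyp2c38 A_52_P468564 (r = 0.76, rho = 0.76, permutation p = 0.00016 and 0.00017, adjusted 0.00117 and 0.00125; r = 0.73 without the 2 farthest arrays and 0.46 after removing group means). Cyp2c39 ran against Cyp2c37 A_51_P498882 (r = -0.46, rho = -0.46, permutation p = 0.0429 and 0.0415, adjusted 0.113 and 0.114; r = -0.52 without the 2 farthest arrays), but within slides the sign turned (r = 0.40 after removing slide means).

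**Figure D4:**
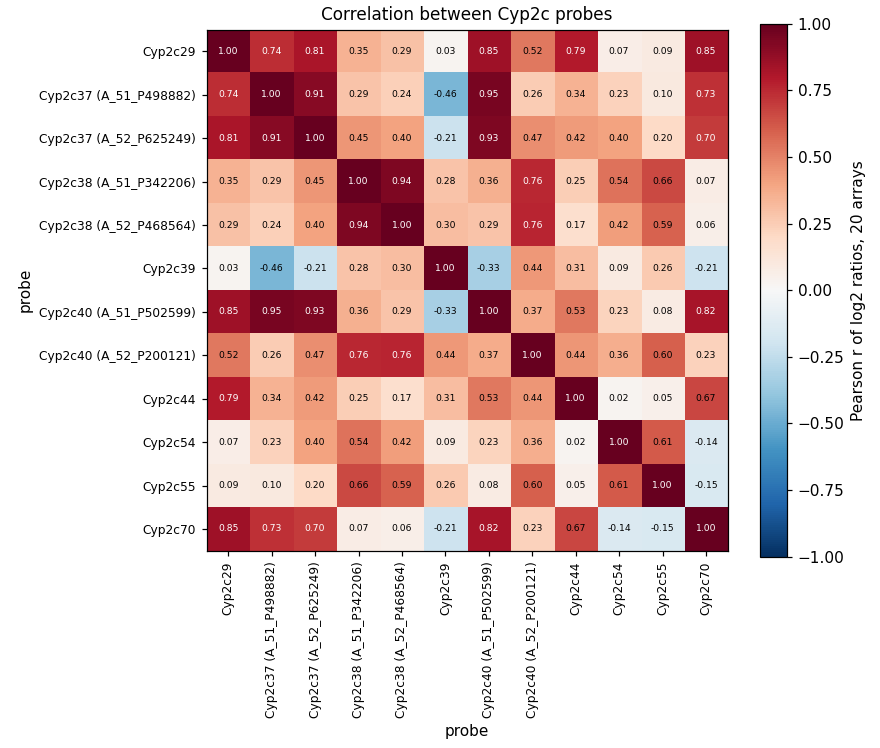
Pearson r between the log2 ratios of each pair of the 12 Cyp2c probes over 20 arrays (rows and columns are probes, red positive and blue negative). Cyp2c29, Cyp2c37, Cyp2c40 A_51_P502599 and Cyp2c70 form a block of high r, Cyp2c38 goes with Cyp2c40 A_52_P200121, and Cyp2c39 is negative with Cyp2c37.

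Outside the family, the genes with the pattern most like Cyp2c29 over the 20 arrays were Pon1 (Pearson r = 0.96), Hal (0.96) and C8g (0.96), and those most like Cyp2c40 A_51_P502599 were Tat (0.97), Cyp7b1 (0.97) and Cyp2j5 (0.97). Most like Cyp2c38 A_52_P468564 were Prlr (0.82), Rdh9 (0.80) and Lama4 (0.80). Each was chosen as the highest of all genes, so these values carry no test.

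The arrays came on 6 slides, 3 of which held 1 mouse of each group. Within these slides and another that held controls and the 50 mg/kg/day group, Cyp2c40 A_52_P200121 was above control on 3 of 3 slides at 25, 4 of 4 at 50 and 3 of 3 at 75 mg/kg/day, by 0.64, 0.67 and 0.48 at the highest dose. These counts were fixed in advance, because each exposed mouse lay above all controls for this probe, and they are no separate check. Both Cyp2c38 probes were above control on 4 of 4 slides at 50 and 3 of 3 at 75 mg/kg/day, by 0.76, 1.24 and 1.03 for A_51_P342206 at the highest dose. For A_51_P342206 the count at 75 mg/kg/day was fixed in the same way. The share of all present probes with such slide counts was not taken. Cyp2c29 was above control on 2 of 3 slides at the highest dose, by 0.91 and 0.47, and below it on the slide of control mouse 1 (difference -0.20). Cyp2c70 was above on 1 of 3. Dose nearly coincided with the position of the array on its slide, and these cannot be told apart.

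The 2 colours of a spot moved together, although the reference RNA was the same pool on every array. With each colour scaled on its own, the liver and reference signals were correlated over the 20 arrays at an adjusted permutation p under 0.05 in 8 of the 12 probes, with r from 0.14 to 0.94 over the 12 (median over all present probes 0.35). The share of all present probes under that p was not taken, and the permutations did not keep slides or dose groups together. For Cyp2c44, r was 0.91 and rho 0.85 (permutation p = 1e-05 for both, adjusted 6e-05; r = 0.89 without the 2 farthest arrays and 0.96 after removing slide means), and its reference signal spanned 6.82 to 8.62 on the log2 scale. For Cyp2c29, r was 0.73 and rho 0.77 (permutation p = 0.00036 and 6e-05, adjusted 0.00072 and 0.00024; r = 0.65 without the 2 farthest arrays and 0.78 after removing slide means). For Cyp2c40 A_52_P200121, r was 0.80 and rho 0.76 (permutation p = 3e-05 and 0.00023, adjusted 0.00012 and 0.000552; r = 0.73 without the 2 farthest arrays and 0.86 after removing slide means).

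The liver signal of Cyp2c40 A_52_P200121 was 0.70 higher at 75 mg/kg/day than in the controls and its reference signal 0.22 higher. For Cyp2c29 the liver signal was 0.18 higher, and the reference signal differed by more, in the other direction (-0.31). For Cyp2c38 A_51_P342206 the liver signal was 0.67 higher and the reference signal 0.03 higher. Taken alone, the liver colour gave Cyp2c40 A_52_P200121 a limma adjusted p of 0.370 at 75 mg/kg/day. The part of this shared movement of the colours in the ratios was not tested.

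**Figure D5:**
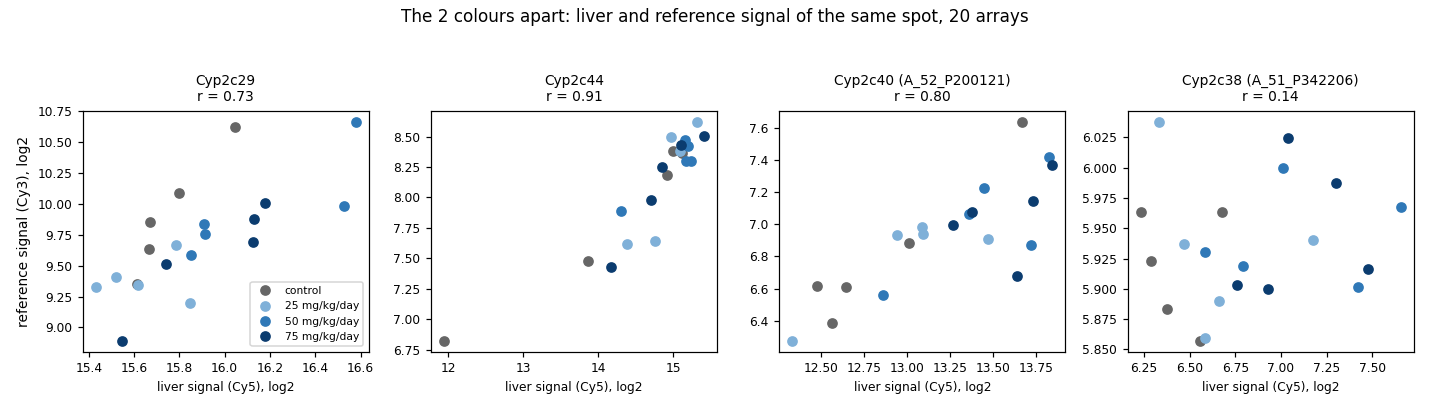
Reference signal (y axis, log2) against liver signal (x axis, log2) of the same spot for 4 Cyp2c probes on the 20 arrays, each colour scaled on its own, coloured by dose. The signals rise together for Cyp2c29, Cyp2c44 and Cyp2c40 A_52_P200121 (r = 0.73, 0.91 and 0.80), while the reference of Cyp2c38 A_51_P342206 stays near background.

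Genes around the family in its pathway were mostly not called. Of the redox partners, 0 of 5 were called at any dose, with Por, the reductase that feeds electrons to the Cyp2c enzymes, at 0.32 ± 0.20 and Cyb5r3 at 0.55 ± 0.23 at 75 mg/kg/day (limma adjusted p = 0.577 and 0.382). Of the nuclear receptors and liver factors that regulate Cyp2c genes, 0 of 16 were called, with Hnf4a at 0.29 ± 0.11 (limma adjusted p = 0.325). Of the arachidonic acid pathway, 1 of 20 was called, Ltc4s, the leukotriene C4 synthase, which lies outside the epoxygenase branch and rose by 2.27 ± 0.22 at 75 mg/kg/day (limma adjusted p = 5.18e-05). Ephx1, an epoxide hydrolase, was at 0.45 ± 0.21 (limma adjusted p = 0.441).

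Of the other Cyp2 genes, 0 of 19 were called at any dose, with 16 of 19 estimates higher and a median of 0.38 at 75 mg/kg/day. The leading ones were Cyp2g1 (1.15 ± 0.25), Cyp2b9 (1.08 ± 0.23) and Cyp2b13 (1.44 ± 0.40), with limma adjusted p-values of 0.0758, 0.0715 and 0.190. Of the CAR and PXR targets, 0 of 19 were called, with 18 of 19 estimates higher and a median of 0.46, and Gstm3, a glutathione transferase, led at 0.90 ± 0.18 (limma adjusted p = 0.0511). Of the aryl hydrocarbon receptor targets, 1 of 9 was called, the quinone reductase Nqo1, which rose by 0.68 ± 0.13 (limma adjusted p = 0.0386). Tiparp was at 0.54 ± 0.13 and the Cyp1 gene Cyp1a2 at 0.31 ± 0.16 (limma adjusted p = 0.131 and 0.470), neither called. The female-biased and male-biased liver genes had 0 of 15 and 0 of 17 called, with medians of 0.50 and 0.33. These lists share genes, and none of their medians was tested against that of the Cyp2c family.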

How the data were processed

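RNA from 20 livers was hybridised against a universal mouse reference on 2-colour Agilent arrays. The deposited intensities are the authors' median spot and background signals (Feature Extraction 10.1.1.1 per the file headers); the authors' deposited log2 ratios (r from 0.994 to 0.996 with those used here) served as an alternative. Intensities were corrected by normexp (offset 50) and loess within arrays, spots marked as outliers were left out, and spots of a probe were averaged. A probe was present where, in 4 of 5 arrays of a group, its signal passed a limit set from negative controls (their mean after trimming 5%, plus 3 SDs). One limma model (R 4.3.3, limma 3.58.1) held all groups, and a second a linear dose term. The p-values were adjusted by Benjamini-Hochberg over 27346 probes. They cover the spread between arrays, 1 per mouse, in which differences between mice, hybridisations and slides are mixed. The modelling was tested on simulated data. Permutation p-values of correlations shuffled all 20 arrays freely, without regard to slide or dose group, so they do not allow for either. MAANOVA was not used. The methods removed 1 sample without naming it, and all 20 were kept. A gene with several probes in a list was represented by its brightest present probe; besides the members, genes called and the 3 of smallest p at 75 mg/kg/day in a list could be named. The members and lists were chosen with earlier results of these data known. The labels name liver and lung, and liver was used. The lowest dose is 25 mg/kg in the sample labels and 24 mg/kg in the series design text, and 25 was used. The number of arrays limits the precision. Plots used matplotlib 3.10.9 in Python 3.11.15.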

Additional observations from a re-analysis of the deposited data

Results flagged for a closer look

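In 3 of the 48 groups of 5 mice formed by the 12 Cyp2c probes and 4 doses, 1 mouse lay far from the others by Dixon's ratio (its gap to the nearest mouse over the range of the group, with a limit of 0.71); chance marks about 1 group in 20. Replicate 13 at 50 mg/kg/day was low for Cyp2c70 (5.51, nearest 6.16; ratio 0.729). Replicate 19 at 75 mg/kg/day was high for Cyp2c39 (4.84, nearest 4.35; ratio 0.748). Control replicate 4 was high for Cyp2c55 (0.95, nearest 0.29; ratio 0.716), and the same array had 67.5% of its liver spots well above background, against 51.9% to 54.3% in the other controls.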

How the results depend on the processing

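The count of Cyp2c probes called at 75 mg/kg/day, 0 as reported, was 1 with the processed signals (Cyp2c38 A_52_P468564), 1 with no background correction and 1 with no fold limit (Cyp2c40 A_52_P200121 in both), and 3 on the 3 complete slides with slide as a block, an alternative chosen after seeing the data (both Cyp2c38 probes and Cyp2c40 A_52_P200121). Over all present probes the count moved too, from 37 to 62, 52, 42 and 81 in these 4 settings. Leaving out 1 array at a time gave 0 to 1, with 1 without control replicate 1 (Cyp2c29) or without replicate 16 or 20 at 75 mg/kg/day (Cyp2c40 A_52_P200121), where 50, 45 and 25 of all probes were called. The count with a trend, 1 as reported, was 2 with slide as a fixed block, 2 with slide as a random block and 3 on the 3 complete slides, and 1 to 2 leaving out 1 array, with 2 without replicate 6 at 25 or 19 at 75 mg/kg/day; Cyp2c38 A_52_P468564 was added in each of these, and Cyp2c38 A_51_P342206 too on the 3 complete slides. For the trend, the count over all present probes was not taken in these settings, so the members' counts have no share to be read against. At 75 mg/kg/day the direction turned for Cyp2c54 with the processed signals (-0.33) and for Cyp2c70 on the 3 complete slides (-0.026). The cause was not tested. The adjusted p of Cyp2c40 A_52_P200121 ranged from 0.0080 with array weights to 0.891 with the processed signals. The replicate numbers differ between the groups, so mice were not paired by number; slide was the block.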
